A study of Mus musculus with 12 samples.

Results

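Acute phase genes encode plasma proteins that the liver makes in changed amounts during inflammation, and 10 of them, Serpina3n, Itih3, Itih4, Cp, Saa1, Saa3, Saa4, Hp, Hpx and Apcs, are described here in the liver and quadriceps muscle of PGC-1beta mutant and control mice. They were selected on measured values, since results of these same arrays, mutant against control, were known when the 10 symbols were chosen, and they are 10 of the 18193 genes with a probe set of a single symbol. Their calls below are therefore a description and no independent support. In inflammation, macrophages release interleukin-6, interleukin-1 and tumour necrosis factor, and hepatocytes answer through the transcription factors STAT3, NF-kB and C/EBP. Positive acute phase proteins, such as serum amyloid A, haptoglobin and ceruloplasmin, then increase in plasma, while negative ones, such as albumin and transthyretin, decrease.

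The mice were C57BL/6 and either carried a mutation that reduces the function of PGC-1beta (hypomorphic) or were controls without it. PGC-1beta, the product of Ppargc1b, is a coactivator of transcription factors that control mitochondrial and lipid genes. Affymetrix Murine 430 2.0 arrays measured total RNA in 4 groups of 3 arrays each, which were mutant liver, control liver, mutant quadriceps and control quadriceps. The labels used here state no age, sex, feeding state, inflammatory stimulus or allele structure. Nor do they say that each array is a separate mouse, so the spread behind each p-value may be technical. Unless a value is called deposited, levels are intensities after quantile normalization within a tissue, and differences are mutant minus control in log2(value + 16) with their standard error (SE). An adjusted p is limma's over all genes tested in that comparison, and a gene was called where it was under 0.05.

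Ppargc1b RNA averaged 367 ± 149 in mutant livers and 437 ± 137 in control livers (SD, n = 3 each), a log2 difference of -0.28 with adjusted p = 0.69, so this probe set did not separate the groups. In liver 310 of 13326 genes were called higher and 137 lower. With the values as deposited, the split was 279 higher and 18 lower. Over the 3 control transcripts Actb, Gapdh and Pcx, the mean log2 ratio of 3′ to 5′ probe sets, a reading of RNA quality, was 1.90, 0.90 and 1.87 in mutant livers 1, 2 and 3, against 0.74, 0.97 and 0.50 in control livers 1, 2 and 3. Mutants 1 and 3 thus stood apart, and their values are set out where a result touches them. In muscle the same ratio was 0.33 to 0.56 in mutants and 0.40 to 0.52 in controls. All 9 measured hepatocyte markers were above the offset of 16 in both liver groups, with a summed level of 67204 to 75674 in mutants and 80466 to 81431 in controls. All 9 had a negative log2 difference, and 4 of the 9 had every mutant array below every control array, beside 11.0% of all genes. Tat, tyrosine aminotransferase, was called lower at -0.75 (adjusted p = 0.043), where 1.03% of all genes were called lower. In deposited values Tat was at -0.50 and not called (adjusted p = 0.15), and Alb, albumin, was at 0.025. The 10 skeletal muscle fibre markers summed to 98886 to 100810 in mutant muscle and 99552 to 101045 in control muscle.

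In liver, 4 of the 10 acute phase genes were lower in mutants and 0 were higher, where 1.03% of all genes tested were called lower and 2.33% higher. The 4 were Serpina3n, Itih4, Itih3 and Cp, at log2 differences of -0.71 to -0.46. All 3 mutant arrays lay below all 3 control arrays in these 4 genes, an arrangement found in 11.0% of all genes, and above them in Saa3 alone, found in 13.0% of all genes. The median difference of the 10 was -0.20, beside 0.01 over all 13326 genes. This depended on the scaling between arrays. In deposited values the median of the 10 was 0.0078, beside 0.018 over all genes. After median centring it was -0.0049, beside 0.0091. On the quantile scale hepatocyte markers were lower on the same arrays, 1 of 9 past the threshold, and their part in these differences was not tested. In whole liver, fewer cells of a type and less RNA per cell cannot be told apart.

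Serpina3n encodes a secreted inhibitor of serine proteases, one of a mouse gene cluster that corresponds to human antichymotrypsin. It read 1747, 1974 and 1669.8 in mutant livers, against 3053, 3129 and 2655 in control livers. The highest mutant array was below the lowest control array, and the averages were 1797 ± 158 in mutants and 2946 ± 255 in controls (SD, n = 3 each). In log2 the difference was -0.71, with a 95% interval from -0.97 to -0.45 (SE 0.12, adjusted p = 0.018).

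Itih4 and Itih3 encode heavy chains of the inter-alpha-trypsin inhibitor family, plasma proteins of which several are linked to bikunin and to the matrix sugar hyaluronan. Itih4 read 5966, 6391 and 5478 in mutant livers, against 8513, 8287 and 8946 in control livers. Its groups did not overlap, and the log2 difference was -0.53 (SE 0.09, 95% interval -0.72 to -0.34, adjusted p = 0.018). Itih3 read 3892, 4671 and 4457 in mutant livers, against 6447, 6025 and 5669.5 in control livers. Mutant array 1 was the lowest here, and all mutant arrays were below the controls, a difference of -0.48 (95% interval -0.70 to -0.26, SE 0.10, adjusted p = 0.034).

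Cp encodes ceruloplasmin, a copper-carrying enzyme that oxidises iron so that transferrin can bind it. It read 5452, 6126 and 5723 in mutant livers, against 8274, 8249 and 7332 in control livers. The groups did not overlap, and the log2 difference was -0.46 (SE 0.09, 95% interval -0.66 to -0.26, adjusted p = 0.027). Within each group the highest array exceeded the lowest by at most 1.2 times in these 4 genes.

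The size of these 4 differences depended on the scaling between arrays. With the values as deposited they were -0.51 for Serpina3n, -0.30 for Itih4, -0.21 for Itih3 and -0.23 for Cp, with adjusted p-values of 0.11, 0.29, 0.50 and 0.40, and 0 of the 10 genes were called. Over 22 alternative settings the adjusted p-values of these 4 genes ran from 0.015 to 0.61. Without mutant 1, mutant 3, control 1 or control 2, 0 of the 10 were called, in fits that called 0, 43, 27 and 0 genes in all. Without control 3 Serpina3n was called, of 35 genes, and without mutant 2 all 4 were, of 740. In deposited values all 3 mutant arrays were below all 3 controls in these 4 genes, as in 5.70% of all genes, and above them in Saa3, Hpx and Apcs. Groups without overlap in either direction were thus seen in 7 of the 10 on that scale, beside 17.7% of all genes. Deposited Serpina3n, for instance, was 1909, 2083 and 1709 in mutants, against 2632, 2638 and 2837 in controls.

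**Figure D1:**
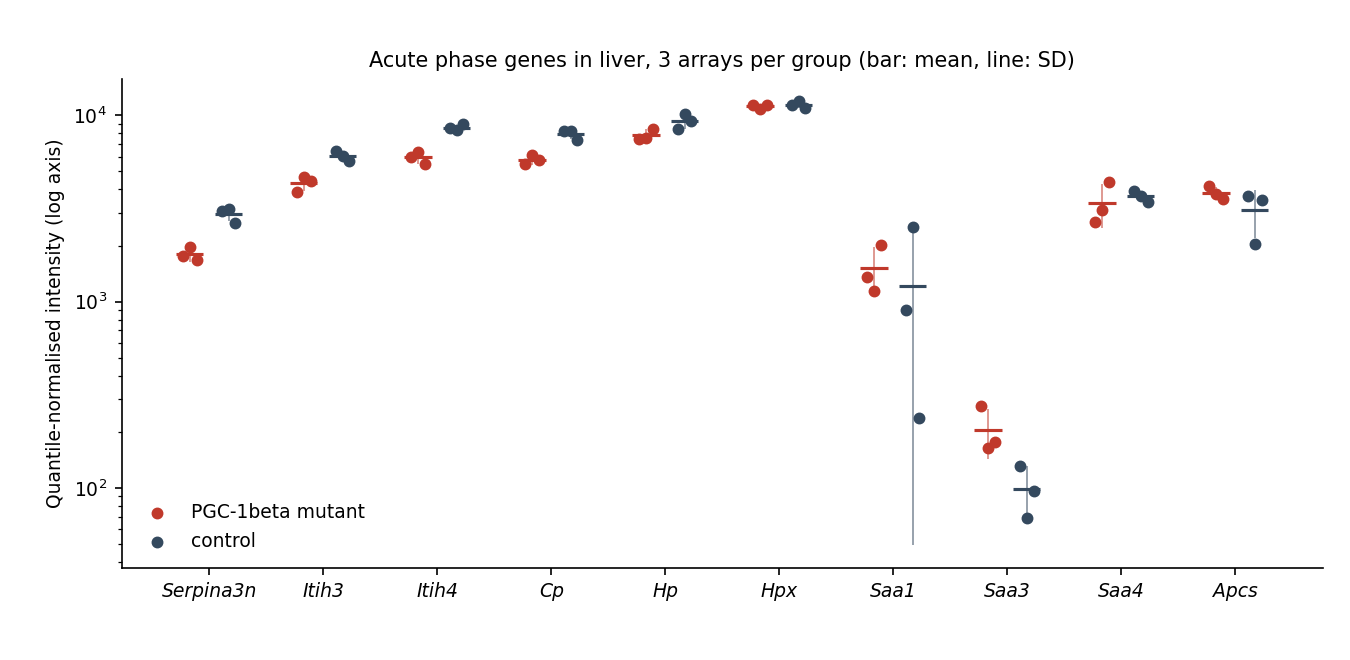
Quantile-normalised intensity (log axis) of the 10 genes on each liver array, with PGC-1beta mutants in red left of controls in dark blue, a bar at the mean and a line of 1 SD to each side (n = 3 each). Mutant arrays lie below control arrays without overlap for Serpina3n, Itih3, Itih4 and Cp and above them for Saa3, and Saa1 ran from 238 to 2513 among control livers.

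The 4 genes lie on 3 chromosomes, since Itih4 and Itih3 are direct neighbours on chromosome 14, with Itih1 as the next gene. Promoter windows of 300 bases, 250 before and 50 after an annotated start site, were taken from RefSeq (GRCm38.p6) and were found for 9 of the 10 genes in 10 windows. They were searched on both strands for a STAT motif (TTCNNNGAA), a C/EBP motif (TTNNGCAA, or its stricter form TTGCGCAA) and an NF-kB motif (GGGA, 4 bases of any kind, then CC), named for the factors of the acute phase response. The 250 bases before the start site are shown 5′ to 3′ for the genes that were lower together and for Saa3, which read the other way, and capitals mark matches to these motifs.

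Serpina3n, chr12:104406458-104406707, plus strand: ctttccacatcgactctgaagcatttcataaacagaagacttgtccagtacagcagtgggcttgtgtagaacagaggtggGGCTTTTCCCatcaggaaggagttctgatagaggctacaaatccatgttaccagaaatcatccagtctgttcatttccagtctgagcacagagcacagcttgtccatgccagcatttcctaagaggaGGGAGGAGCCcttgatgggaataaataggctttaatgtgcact

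Itih4, chr14:30886226-30886475, plus strand: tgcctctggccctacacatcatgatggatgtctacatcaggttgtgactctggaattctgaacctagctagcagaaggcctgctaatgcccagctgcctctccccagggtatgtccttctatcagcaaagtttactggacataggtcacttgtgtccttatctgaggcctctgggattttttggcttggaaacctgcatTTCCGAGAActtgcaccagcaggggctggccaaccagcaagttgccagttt

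Itih3, chr14:30923588-30923837, minus strand: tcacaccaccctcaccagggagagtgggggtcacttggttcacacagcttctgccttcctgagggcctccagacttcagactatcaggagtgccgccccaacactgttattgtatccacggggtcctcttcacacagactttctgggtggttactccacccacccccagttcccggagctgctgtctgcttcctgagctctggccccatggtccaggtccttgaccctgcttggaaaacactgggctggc

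Cp second start site, chr3:19956999-19957248, plus strand: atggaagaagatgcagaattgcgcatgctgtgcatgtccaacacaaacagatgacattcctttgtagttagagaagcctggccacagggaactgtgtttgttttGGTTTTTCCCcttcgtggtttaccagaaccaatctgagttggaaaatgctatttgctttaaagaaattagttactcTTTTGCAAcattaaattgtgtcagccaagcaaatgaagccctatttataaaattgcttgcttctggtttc

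Saa3, chr7:46715677-46715926, minus strand: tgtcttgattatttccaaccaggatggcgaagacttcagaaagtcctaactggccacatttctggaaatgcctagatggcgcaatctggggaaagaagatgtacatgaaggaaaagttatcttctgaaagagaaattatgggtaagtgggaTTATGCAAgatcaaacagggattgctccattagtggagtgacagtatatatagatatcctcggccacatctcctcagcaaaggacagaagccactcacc

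Counted back from the start site, Serpina3n held 2 NF-kB matches with first bases at -170 and -43, and Itih4 held 1 STAT match at -51. The second Cp window held an NF-kB match at -146 and a C/EBP match at -70, and the Saa3 window a C/EBP match at -99. Itih3 and the first Cp window held none. Of the other windows, those of Saa1, Saa4 and Hpx held a C/EBP match and that of Apcs a STAT match, and the stricter C/EBP form was in 0 windows. Among 32851 promoter windows of the same length, 8.3% held the STAT motif, 10.8% the C/EBP motif, 0.183% its stricter form and 20.7% the NF-kB motif. The 4 genes that were lower thus shared no one of these motifs, and a match is a run of letters, not a binding site.

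Hp and Hpx encode the plasma scavengers of free haemoglobin and of haem. Hp read 7433, 7531 and 8489 in mutant livers, against 8460.5, 10124 and 9301 in control livers. Mutant array 3 lay above control array 1, so the groups overlapped, and the log2 difference of -0.25 did not pass (SE 0.09, adjusted p = 0.18). Hpx read 11304, 10873 and 11317 in mutants, against 11392, 11874 and 10955 in controls. Its 95% interval, -0.19 to 0.13 around a log2 difference of -0.03, was the narrowest of the 10 (adjusted p = 0.87). The sign of the Hpx difference turned with the values as deposited, where it was 0.12 and all mutant arrays were above all controls.

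The serum amyloid A genes Saa3, Saa4, Saa1 and Saa2 sit side by side on chromosome 7, and in liver they did not move as one. Saa1 encodes an inducible apolipoprotein of high density lipoprotein, Saa3 a form that in mice macrophages and fat cells also make, and Saa4 the constitutive form. Saa3 read 274, 163 and 176 in mutant livers, against 132, 69.2 and 95.9 in control livers. Every mutant array was above every control array, mutant 1 the most, but the log2 difference of 0.94 (SE 0.25, 95% interval 0.39 to 1.49) missed the threshold with adjusted p = 0.067. Saa3 was past it in a fit of all 12 arrays, where the adjusted p was 0.028, in a range from 0.028 to 0.69 over the alternatives.

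Saa1 read 1363, 1147 and 2006 in mutant livers, against 904, 2513 and 238 in control livers. The controls surrounded the mutants, and the highest control exceeded the lowest 10.5 times, and only 5 of 13326 genes had a wider spread over the control livers. The log2 difference of 0.82 had an interval from -0.56 to 2.20 (SE 0.62, adjusted p = 0.53), and without control 3 it was -0.04. The second Saa1 probe set gave the same order of arrays within the controls, at 1523, 3944 and 347, with 1873, 1779 and 3082 in mutants and a log2 difference of 0.75. The sequence accession of the first probe set belongs to Saa2 in RefSeq, and Saa1 and Saa2 are near-identical copies, so neither can be read apart from the other with certainty.

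The controls of Saa1 had control 2 highest and control 3 lowest. On the quantile scale this order was found in 3 of the 10 genes, Saa1, Hpx and Serpina3n. It was also found in 9 of the 26 tested genes of a list of other positive acute phase genes, and in 17.5% of all genes. The deposited array medians of controls 1, 2 and 3 were 35.2, 27.2 and 40.1. In deposited values Saa1 kept the order, at 807, 2134 and 286 in controls 1, 2 and 3. Serpina3n, at 2632, 2638 and 2837, and Hpx, at 11003, 10505 and 10832, did not keep it. Saa2, Lcn2 and Mt1 are among the 9, and were named after their values were seen. Saa2 read 305, 244 and 381 in mutants, against 208, 463 and 128 in controls, and Lcn2, an iron-siderophore binding protein, read 47.8, 87.2 and 56.6 in mutants, against 38.6, 168 and 30.5 in controls. The metallothionein gene Mt1 read 1835, 758 and 687 in mutants, against 1759, 3411 and 472 in controls. The other 17 genes of that list had another order, such as Hamp2, a hepcidin gene chosen after its values were seen, which read 3063, 3324 and 2132 in mutants, against 2515, 1657 and 3858 in controls. None of Saa1, Saa2, Lcn2 and Mt1 was called between mutants and controls, with adjusted p-values of 0.53, 0.64, 0.99 and 0.69.

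Saa4 read 2672, 3108 and 4383 in mutant livers, against 3944, 3669.7 and 3416 in control livers, with the mutants on both sides of the controls. Its log2 difference was -0.15 (SE 0.16, adjusted p = 0.68). A second Saa4 probe set read 463, 1454 and 672 in mutants, against 2363, 2046 and 1881 in controls, a log2 difference of -1.42 (SE 0.32) with adjusted p = 0.056 over all probe sets. The probe sets therefore disagreed, and in the second the lowest arrays were mutants 1 and 3, those with the high 3′ to 5′ ratios. The part of RNA quality in this difference was not tested for this probe set.

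Apcs encodes serum amyloid P component, the pentraxin that in mice takes the acute phase role that C-reactive protein has in humans. It read 4154, 3803 and 3569.65 in mutant livers, against 3693, 2049.7 and 3522 in control livers. Control 2 stood low by itself, mutant 3 lay between the other controls, and the log2 difference of 0.36 did not pass (SE 0.19, adjusted p = 0.35). Deposited Apcs was 4785, 4027 and 3731.5 in mutants, against 3252, 1740 and 3692 in controls, so on that scale the groups did not overlap. Crp, its neighbour on chromosome 1, had a log2 difference of -0.26 (adjusted p = 0.25).

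**Figure D2:**
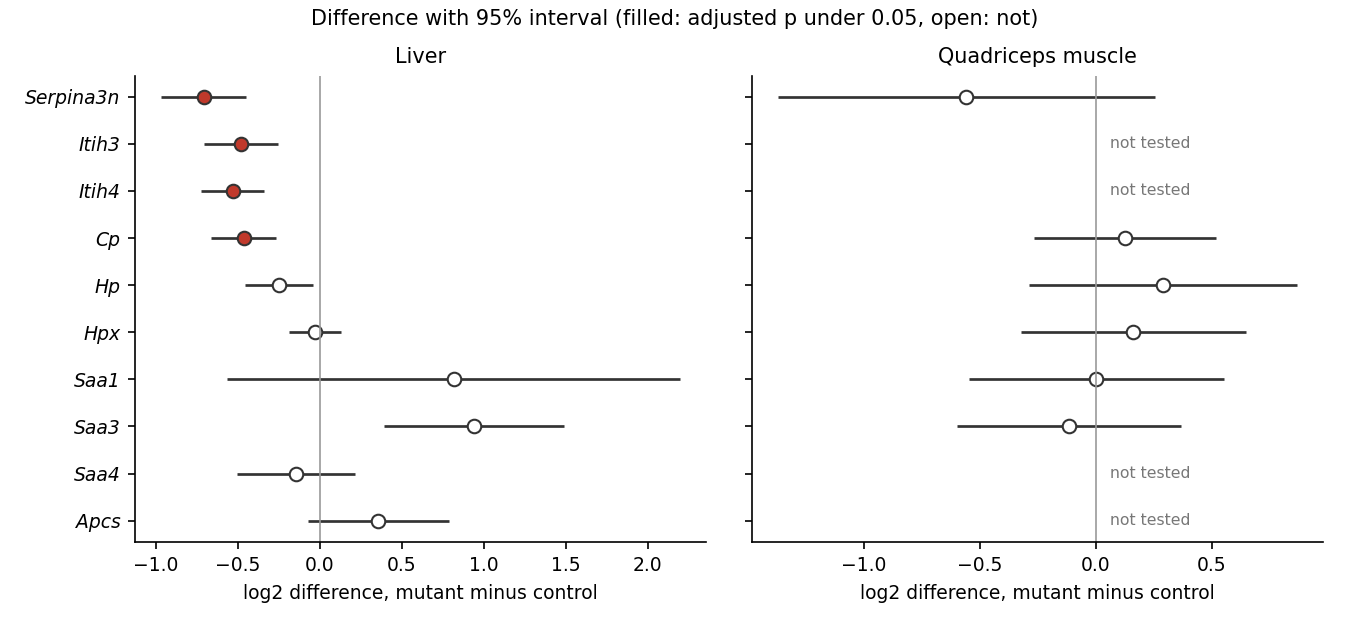
Log2 difference of mutant minus control with its 95% interval for each of the 10 genes, in liver on the left and in quadriceps muscle on the right. Filled points, Serpina3n, Itih3, Itih4 and Cp in liver, had an adjusted p under 0.05, and no point is filled in muscle, where 4 genes were not tested.

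Of the 10 genes, 7 had 1 probe set, Saa1 and Saa4 had 2 each and Cp had 8. Of the 8 for Cp, 5 averaged over 1000 in control livers, and all 5 were lower in mutants, by log2 differences of -0.64 to -0.38. With adjustment over all probe sets, 3 of these 5 were called and 2 were not, with adjusted p-values from 0.039 to 0.15. The other 3 Cp probe sets averaged only 24.6 to 44.9 in control livers, and 0 of them were called.

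**Figure D3:**
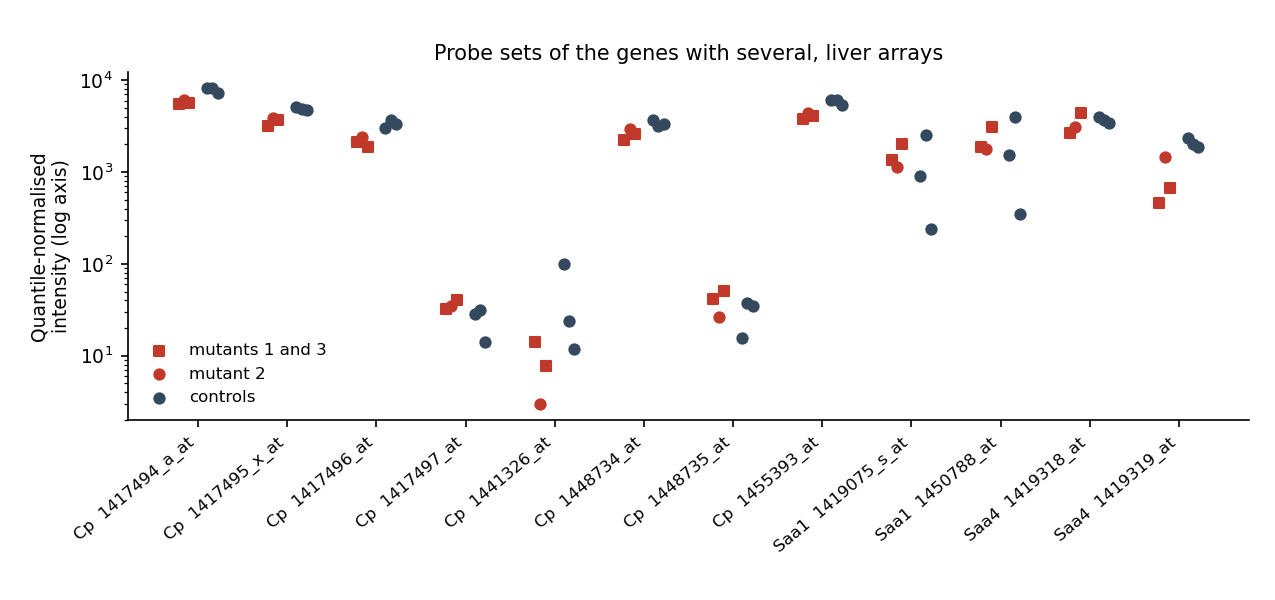
Quantile-normalised intensity (log axis) of each probe set of Cp, Saa1 and Saa4 on the liver arrays, mutants in red left of controls in dark blue, with squares for mutants 1 and 3. The 5 bright Cp probe sets were lower in mutants, while the Saa4 probe sets differed from each other, by -0.15 and -1.42 in log2 difference.

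The 4 lower genes were compared with the 3′ to 5′ ratios array by array. Relative to the control mean in log2, Serpina3n was -0.74 in mutant 1, -0.57 in mutant 2 and -0.81 in mutant 3, Itih4 was -0.52, -0.42 and -0.65, Itih3 was -0.63, -0.37 and -0.44, and Cp was -0.54, -0.37 and -0.47. Mutant 2, whose ratio of 0.90 was within the control range, was the nearest to the controls in all 4 genes and still below every control array. Without mutants 1 and 3 the mutant group is 1 array, and 0 of 13293 genes were called in all, so the count of 0 among the 10 says nothing about them. With the ratio as a covariate, the log2 differences were -0.62 for Serpina3n, -0.39 for Itih4, -0.38 for Itih3 and -0.41 for Cp, and 0 of the 10 were called in a fit that called 2 genes in all.

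**Figure D4:**
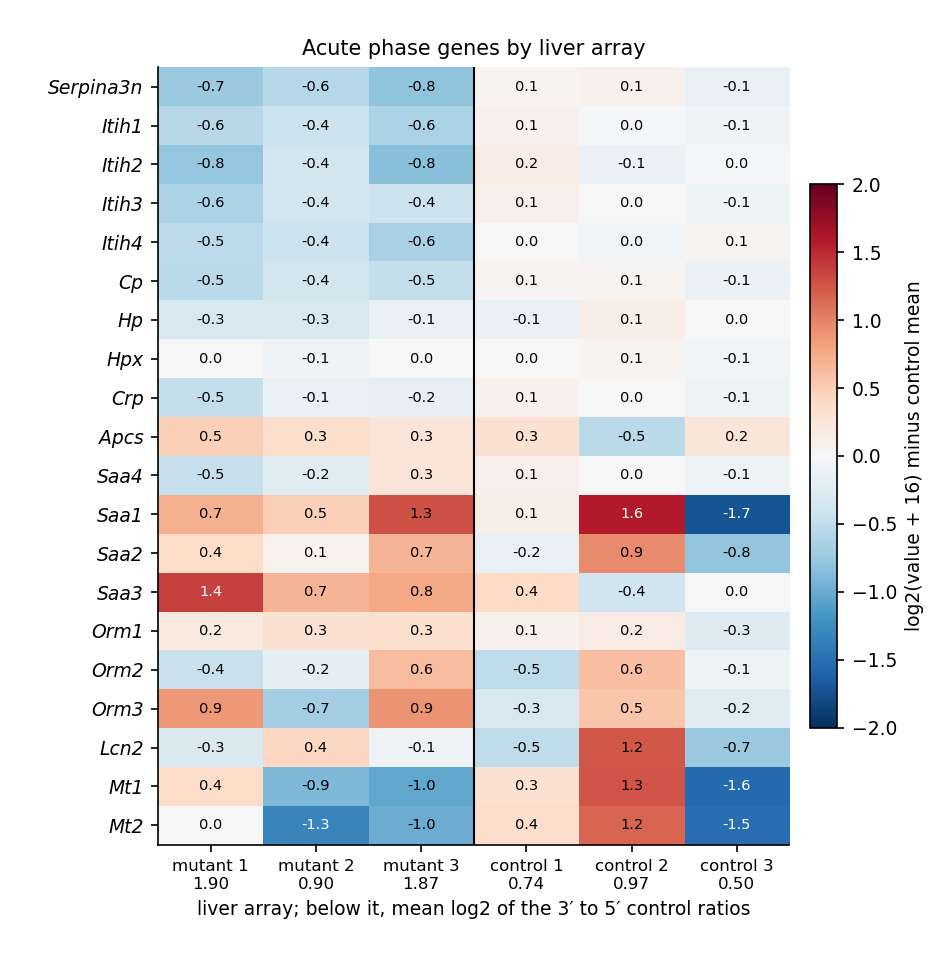
Log2(value + 16) minus the control mean for acute phase genes (lines) on each liver array (columns), mutants left of controls, with each array's mean log2 3′ to 5′ ratio under its name. Serpina3n, Itih1 to Itih4 and Cp are below the control mean on all 3 mutant arrays. So are Hp, Crp and, by little, Hpx, which were not called. Among the controls, Serpina3n, Hpx, Orm1, Saa1, Saa2, Lcn2, Mt1 and Mt2 are highest in control 2 and lowest in control 3.

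Of 32 other positive acute phase genes, 28 were measured and 26 tested in liver, of which 0 were higher and 3 lower, with a median difference of -0.15. For this list and those that follow, the shares over all genes in liver were 2.33% called higher and 1.03% called lower. The 3 were Itih1, Itih2 and Serping1. Itih1, the next gene after Itih3 on chromosome 14, read 2185, 2368 and 2067 in mutants, against 3424, 3159 and 3057 in controls, a log2 difference of -0.54 (adjusted p = 0.028). Itih2, a further heavy chain of the family, read 2153, 2868 and 2083 in mutants, against 4126, 3403 and 3641 in controls, a log2 difference of -0.66 (adjusted p = 0.034). All 4 measured heavy chain genes of these lists, Itih1, Itih2, Itih3 and Itih4, were thus lower. Ambp, whose products include bikunin, the light chain linked to several of the heavy chains, had a log2 difference of -0.06 (adjusted p = 0.71). Serping1, the inhibitor of the first complement component, was at -0.51 (adjusted p = 0.039), and complement factor gene Cfb at -0.44 (adjusted p = 0.055). In deposited values Itih1 was at -0.33, Itih2 at -0.44 and Serping1 at -0.23, and 0 genes of the list were called lower and 1 higher, Orm1, a lipid-carrying plasma glycoprotein whose difference on the quantile scale was 0.28 (adjusted p = 0.21).

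Of 8 negative acute phase genes, 7 were tested in liver, 1 was lower and 0 were higher, with a median difference of -0.11. The lower one was Fetub, a plasma protease inhibitor of the fetuin family, which read 3403, 3602 and 3858 in mutants, against 4649, 5917 and 5157 in controls, a log2 difference of -0.53 (adjusted p = 0.034). Serpina6, corticosteroid-binding globulin, was at -0.50 (adjusted p = 0.095), Ahsg, fetuin A, at -0.18 (adjusted p = 0.19) and Alb, albumin, at -0.11 (adjusted p = 0.41). Genes called lower in liver therefore came from both the positive and the negative list. With the values as deposited, Fetub was at -0.25 and not called, and the median of the negative list was 0.03.

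Of 33 genes of acute phase cytokine signalling, 28 were tested in liver, 2 were lower and 0 were higher, with a median difference of -0.25. Il6ra, the interleukin-6 receptor, read 199, 210.2 and 195 in mutant livers, against 427, 364 and 312 in control livers. All mutant arrays were below all controls, with a log2 difference of -0.81 (SE 0.16, adjusted p = 0.030). Cebpa, a liver C/EBP factor, read 3377, 4028 and 3456 in mutants, against 4701, 5096 and 5331 in controls, a log2 difference of -0.48 (SE 0.10, adjusted p = 0.037). Stat3, which carries the interleukin-6 signal, was at -0.60 (adjusted p = 0.056), and Rela, an NF-kB subunit, at -0.55 (adjusted p = 0.081). All mutant arrays lay below all controls in 10 of the 28 genes, beside 11.0% of all genes, and above them in 1, beside 13.0%. The 1 was Il1b, the gene of interleukin-1 beta, named after its values were seen, at 79.5, 92.5 and 56.9 in mutants, against 26.5, 32.1 and 54.9 in controls. Its log2 difference of 0.79 was not called (adjusted p = 0.13). In deposited values Il6ra was at -0.82 (adjusted p = 0.054) and Cebpa at -0.21 (adjusted p = 0.57), in ranges from 0.018 to 0.46 and from 0.023 to 0.68 over the alternatives.

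Of 19 genes of haem and iron handling, 17 were tested in liver, 1 was higher and 1 lower, with a median difference of -0.10. Blvra, biliverdin reductase A, read 522, 421 and 429.9 in mutants, against 239.8, 293 and 208 in controls, a log2 difference of 0.86 (SE 0.17, adjusted p = 0.030). Tfr2, a liver sensor of transferrin-bound iron, read 1585, 1939 and 1498 in mutants, against 2661, 2759 and 2452 in controls, a log2 difference of -0.65 (SE 0.13, adjusted p = 0.027). Blvrb, a second biliverdin reductase, was at 0.72 (adjusted p = 0.051), and Lrp1, the receptor that takes up haem bound to hemopexin, at -0.82 (adjusted p = 0.080). Lrp1 read 828, 1548 and 848 in mutants, against 2162, 1839 and 1540 in controls. The low arrays were thus mutants 1 and 3, those with the high 3′ to 5′ ratios, and mutant 2 lay above control 3. With the ratio as a covariate the Lrp1 difference was -0.26, and with mutant 2 as the only mutant array it was -0.24. In deposited values 2 genes were called higher, Blvra and Blvrb, and 0 lower.

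Kupffer cell and macrophage markers differed between the same livers. Their 15 genes summed to 4504 to 5591 in mutants and 2818 to 3976 in controls. Of the 15, 3 were called higher, where 2.33% of all genes were. They were Tyrobp at a log2 difference of 1.33, Lyz2 at 1.28 and Vsig4 at 0.80 (adjusted p-values 0.017, 0.018 and 0.045). In sign 14 of the 15 were positive, and Csf1r was at -0.07. Saa3, which macrophages can make, read above the controls on the same arrays without passing the threshold (adjusted p = 0.067), and the part of these cells in that was not tested. Neutrophil markers summed to 296 to 334 in mutants and 269 to 327 in controls, with 0 called and with Camp and Cxcr2 under the offset in both groups.

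The 3 genes whose log2 values followed Itih4 most closely over the 6 liver arrays, by Pearson's r, were Sec24d at 0.994, Cyp2d22 at 0.992 and 6330409D20Rik at 0.991. Each was lower in mutants, at log2 differences of -0.61, -0.78 and -1.23, with adjusted p-values of 0.038, 0.026 and 0.039. All 6 points share the contrast between the groups, so the likeness describes these arrays only. The 3 genes were picked for likeness to a gene whose groups did not overlap, so their direction and p-values are no independent support.

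In quadriceps muscle 6 of the 10 genes passed the filter on low values and 0 were called, where 0.0152% of 13131 genes were called in either direction by limma. At an unadjusted p under 0.05 the count was also 0 of the 6. The arrays of the groups did not separate in any of the 6, while they did in 9.54% of all genes. Itih3, Itih4, Saa4 and Apcs were not tested, with levels of 1.33 to 7.95, 3.48 to 18.6, 1.27 to 17.8 and 1.25 to 1.98 in mutants, and of 0.883 to 4.80, 0.983 to 20.1, 7 to 15.95 and 1.70 to 4.55 in controls. These lie mostly below the offset of 16, where differences carry little information.

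Serpina3n read 7.17, 49.3 and 50.5 in mutant muscle, against 65.2, 51.8 and 42.3 in control muscle. One mutant array was low and the other two lay among the controls, so the log2 difference of -0.56 had a wide interval, -1.37 to 0.25 (adjusted p = 0.99). Cp read 114, 107 and 147 in mutant muscle, against 126, 85.8 and 124 in control muscle, with mixed groups and a log2 difference of 0.13 (adjusted p = 0.99). Hp read 99.3, 99.9 and 223 in mutants, against 117, 106 and 90.8 in controls. Mutant 3 alone was high, and the log2 difference of 0.29 did not pass (adjusted p = 0.99). Saa3 ranged from 19.0 to 31.85 in mutants and 21.25 to 32.85 in controls, Saa1 from 13.3 to 16.7 and from 10.8 to 22.7, and Hpx from 18.5 to 27.6 and from 14.05 to 22.4. Their log2 differences were -0.12, 0.00 and 0.16, with groups that overlapped.

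The 3 genes closest to Serpina3n over the 6 muscle arrays were Tmem161b, Atp6v1g2 and Iqcd, with r of 0.989, 0.988 and 0.987. Their log2 differences of -0.33, -0.32 and -0.26 were not called, and in Serpina3n mutant 1 stood far below the other arrays. In muscle 0 genes were called in any of the 4 further lists. Among the smallest p-values, Cfb was at 0.52, Pigr, the receptor that carries antibodies across epithelia, at 0.41, and Mt2 at 0.47. The negative genes Rbp4 and Alb were at 0.46 and -0.34. In signalling, the glucocorticoid receptor gene Nr3c1 was at 0.28, the phosphatase gene Ptpn11 at -0.23 and the kinase gene Tyk2 at 0.26. In iron handling the transferrin receptor gene Tfrc was at -0.48, the haem synthesis gene Alas1 at -0.30 and Tfr2 at 0.71. All 11 of these had adjusted p = 0.99.

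Whether the response to the mutation differed between the tissues was tested for the 6 genes measured in both. Of these, 0 were called, where limma called 1.42% of 11841 genes, and 2 of the 6, Saa3 and Cp, had an unadjusted p under 0.05. The liver response minus the muscle response was 1.05 for Saa3 (SE 0.34, 95% interval 0.33 to 1.78, adjusted p = 0.14) and -0.59 for Cp (SE 0.20, 95% interval -1.01 to -0.16, adjusted p = 0.17). For Serpina3n it was -0.15, with an interval from -1.04 to 0.74 that leaves both directions possible (adjusted p = 0.90). For Hp it was -0.54, for Hpx -0.19 and for Saa1 0.82, with adjusted p-values of 0.41, 0.65 and 0.65. Of the 12 other positive acute phase genes tested here, Cfb alone was called, at -0.96 (SE 0.19, adjusted p = 0.028). It combined -0.44 in liver with 0.52 in muscle, neither called within its tissue (adjusted p = 0.055 and 0.99). Muscle Cfb averaged 28.2 in mutants and 15.05 in controls, close to the offset of 16. The muscle difference was 0.89 with an offset of 1 and 0.22 with an offset of 64. The called tissue difference thus rests in part on muscle values near the offset. With the values as deposited the tissue difference of Cfb was -0.73 and not called (adjusted p = 0.16, in a range from 0.023 to 0.21 over the alternatives).

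Without the mutation all 10 genes were higher in control liver than in control muscle, where 26.3% of genes were called higher in liver. As these genes are known liver products, the direction is no finding. The log2 differences, liver minus muscle, were 8.06 for Itih4, 7.80 for Itih3, 7.79 for Hpx, 6.79 for Apcs, 6.36 for Saa4, 5.54 for Hp, 5.24 for Cp, 4.69 for Serpina3n, 4.21 for Saa1 and 0.91 for Saa3. Saa3 was the exception in size, at 69.2 to 132 in control liver and 21.25 to 32.85 in control muscle on separately normalised scales. In every one of the 10 genes both liver groups lay above both muscle groups in the deposited values. The offset makes these differences smaller than the ratio of the intensities, also for Saa3, and most where muscle values are below 16. Over the alternatives the difference of Saa3 ran from 0.54 to 1.38.

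**Figure D5:**
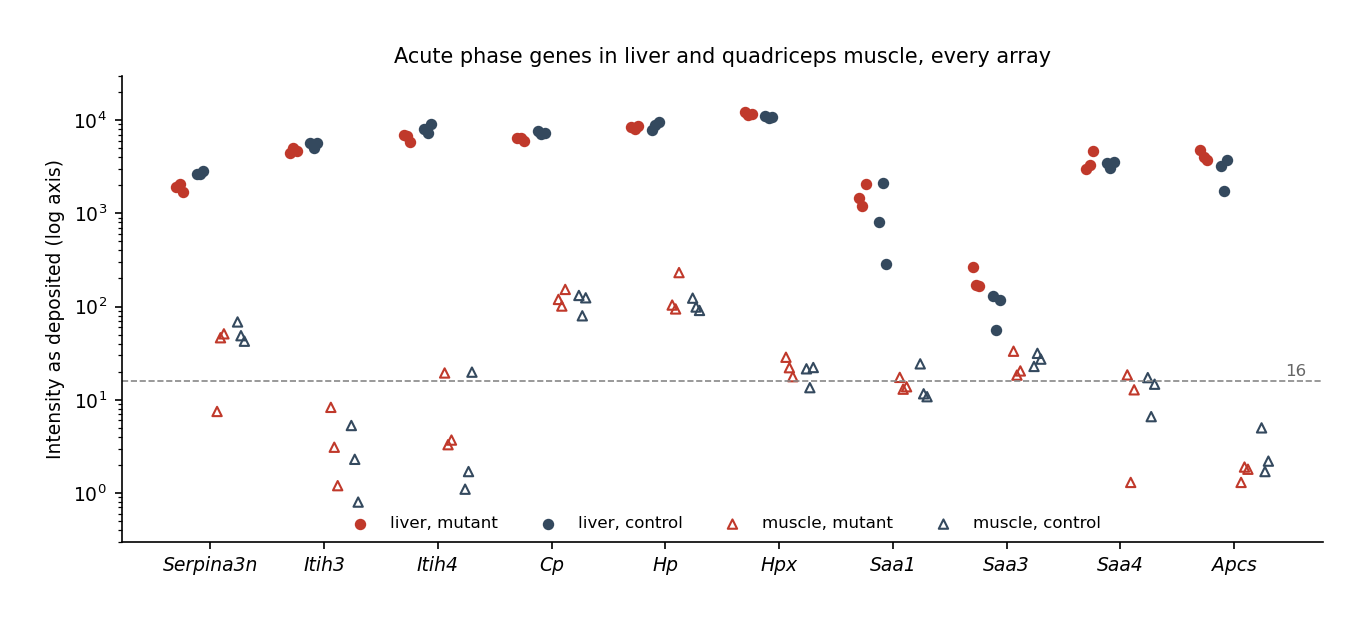
Deposited intensity (log axis) of the 10 genes on all 12 arrays, with liver as circles left of muscle as triangles and mutants in red left of controls in dark blue, and the offset of 16 as a dashed line. Liver arrays exceed muscle arrays in each gene, and Saa3 shows the smallest gap between the tissues.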

How the data were processed

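Total RNA of liver and quadriceps muscle was measured on 12 Affymetrix Murine 430 2.0 arrays, 3 per group. The values are probe set intensity on a linear scale as deposited by the authors. No source used here states how probes were summarised or arrays scaled. Per the labels' design text, d-Chip served for cluster analysis. Of 45101 probe sets, 64 controls were left out, and 34945 had 1 symbol, 932 several and 9160 none. The probe set with the highest mean stood for a gene. The number of arrays limits the precision.

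Array medians of log2(value + 16) differed by 0.38 in liver, above a bound of 0.2, so each tissue was quantile-normalised alone. Genes whose mean exceeded the 40th percentile over probe sets were fitted with limma 3.58.1 in R 4.3.3 (variance trend, 4 residual degrees of freedom per tissue), with Benjamini-Hochberg adjustment over all genes at 0.05. The difference between tissues was the interaction term over 12 arrays, and control tissues were normalised together. Tested on simulated data, the liver fit (13323 genes) recovered 5.88% of 1.5-fold, 33.9% of 2-fold and 82.4% of 4-fold changes and made 1 false call in 68. The muscle fit (13097 genes) recovered 16.4%, 38.8% and 88.1%, and the interaction (11646 genes) 7.69%, 35.9% and 94%. The simulated noise was independent between genes and arrays. These rates therefore leave out effects that the genes of an array share, such as RNA quality. They also leave out the scaling between arrays, since the simulation started from normalised values and did not normalise again.

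The genes described and the other lists were chosen with earlier results of these data known. The rule for names took every one of the 10 genes, from each other list up to 4 genes with the smallest p in liver and 3 in muscle with all genes called where at most 6 were, and the 3 genes most like 1 gene per tissue. Lists were counted, not tested, and the liver values of Saa2, Lcn2, Mt1, Mt2, Orm1, Crp, Ambp, Hamp2, Tat and Il1b were named after they were seen. Same-numbered mutant and control arrays did not deviate together (r from -0.06 to 0.10), so the numbers were not taken to pair samples. Alternatives were other offsets, filters, scalings and probe set rules, array weights, a fit without variance trend, one fit of all 12 arrays, a replicate block, a covariate for RNA quality (the 3′ to 5′ ratio), a threshold of 0.1 and leaving out arrays. Plots used matplotlib 3.10.9 (Python 3.11.15).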

Additional observations from a re-analysis of the deposited data

How the results depend on the processing

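The count of 4 of the 10 acute phase genes called in liver depended on several choices. Without the filter on low values it was 1 (Serpina3n), with the mean of all probe sets 2 (Itih4 and Serpina3n) and in a fit of all 12 arrays 1 (Saa3, higher). It was 0 for deposited values, median centring, no variance trend, the RNA quality ratio (3′ to 5′) as covariate and without liver mutants 1 and 3. With the replicate block it was 0, and the arrays of a number were not shown to be paired. Leaving out 1 array gave 0 to 4, with 4 only without mutant 2, 1 without control 3, and 0 without mutant 1, mutant 3, control 1 or control 2, while the calls over all genes ran from 0 to 740. At a threshold of 0.1 it was 5, with Saa3 added. Over all genes in liver the calls were 447 in the reported fit, 297 with the values as deposited, 164 with median centring, 0 without the variance trend, 11 with the replicate block, 2 with the covariate and 0 without mutants 1 and 3, so several of the counts of 0 among the 10 carry no information on them. The lost calls with fewer arrays have fewer samples, and the other causes were not tested.

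Over the 22 alternatives in liver, Serpina3n ran from -0.78 to -0.51, Itih4 from -0.58 to -0.30, Itih3 from -0.53 to -0.21 and Cp from -0.52 to -0.23, past the threshold in 11, 9, 8 and 8 of them. Hp stayed negative, at -0.33 to -0.07, and Saa3 and Apcs positive, at 0.67 to 1.14 and 0.09 to 0.59. In muscle and for the difference between tissues 0 of the 10 genes were called in every alternative run, and in control tissues 10 were.

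Among the 10 genes, signs turned only for differences that were not called. In liver, Saa4 was 0.083 for deposited values and 0.070 after median centring, and it ran from -0.35 to 0.0081 with 1 array left out. Hpx was 0.12 and 0.11 under those scalings. Saa1 in liver was -0.40 with the covariate and ran from -0.043 to 1.61 with 1 array left out. In muscle Saa1 was -0.0033 with an offset of 64, -0.015 as deposited, -0.00089 with median centring, -0.0066 with array weights and -0.0041 with the covariate, and with 1 array left out it ran from -0.10 to 0.17. Hp ran from -0.058 to 0.47 there and Cp from -0.031 to 0.21. The tissue difference of Serpina3n was 0.23 with an offset of 1, 0.059 as deposited and 0.019 with median centring, and ran from -0.65 to 0.11 with 1 array left out. That of Saa1 was -0.35 with the covariate and ran from -0.046 to 1.61. Of the other genes named, Alb, Crp and Ambp turned positive in liver with deposited values, at 0.025, 0.012 and 0.11, Saa2, Lcn2 and Mt1 turned in 2, 7 and 1 alternatives and Alb in muscle in 1. The 12 genes of other lists and markers called in liver kept their sign in all 22 alternatives and passed the threshold in 6 (Tat) to 16 of them.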
